A study of Rattus norvegicus with 6 samples.

Results

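The complement genes described here were C1qa, C1qb and C1qc, which encode the chains of C1q, C3 and the alternative pathway factors Cfb and Cfd, the anaphylatoxin receptors C3ar1 and C5ar1, and the inhibitor Serping1. Members were the rows of the linear RNA table whose gene name was one of these names. All 9 of the 9 names were found, among 21655 gene names in all, and they held 17 of the 70376 assembled transcripts. The libraries came from lung specimens of Sprague–Dawley (SD) rats, 7 weeks old at the start, with 1 rRNA-depleted stranded library of total RNA per rat. The 3 PF model rats had received bleomycin, a DNA-damaging drug that injures the lung, at 7 mg/kg in a single intratracheal instillation, and the 3 control rats had received an equal volume of saline. Lungs were taken 28 days later, and the labels name no genetic change in either group. The question was whether genes of the complement system differed between PF model and control lungs at this time.

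Complement is a cascade of plasma proteins that marks and lyses targets and calls in leukocytes. C1q binds immune complexes or damaged cells and starts the classical pathway, while factor B and factor D build the C3-cleaving enzyme of the alternative pathway, so that both routes meet at C3. The fragments C3a and C5a act on their receptors on leukocytes, and C1 inhibitor, the product of Serping1, blocks the proteases that start the classical pathway. In lung, C1q genes are mainly known from macrophages, and C3 and factor B are made by epithelial and other local cells as well as by the liver.

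None of the 9 complement genes was differentially expressed between PF model and control lungs. In FPKM, the control and model libraries overlapped for every one of them. Values are gene FPKM, fragments per kilobase scaled to the mapped total and summed over the transcripts of a gene, a level per length. The limma fit on log2(FPKM + 1) gave a log2 fold change, model minus control, above 0 for 8 of 9 genes, with a median of 0.06 beside -0.01 over all 19645 genes tested. The call of p at most 0.05 with an absolute log2 ratio of group means of at least 1 took 0 of the 9, against 1.52% of all genes tested. At an adjusted p below 0.05 the count was also 0 of 9, against 0.0102% of all genes. Before adjustment, 0 of the 9 and 4.91% of all genes had a p of at most 0.05 (1 of the 9, Cfb, after rescaling to TPM and 1 of the 9, C3, without model rat 3), and groups without overlap were seen for 0 of the 9 and for 10.7% of all genes. For the C1q genes, C3 and C3ar1 the lowest and the highest of the 6 libraries were both in the model group, and model rat 3 held the highest value of 7 of the 9 genes. Libraries were of similar depth, between 3.58e+07 and 4.11e+07 reads estimated from coverage, and 34.2% to 46.4% of summed FPKM was on transcripts with small RNA names. In bulk lung, fewer cells of a type and less RNA per cell cannot be told apart.

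**Figure D1:**
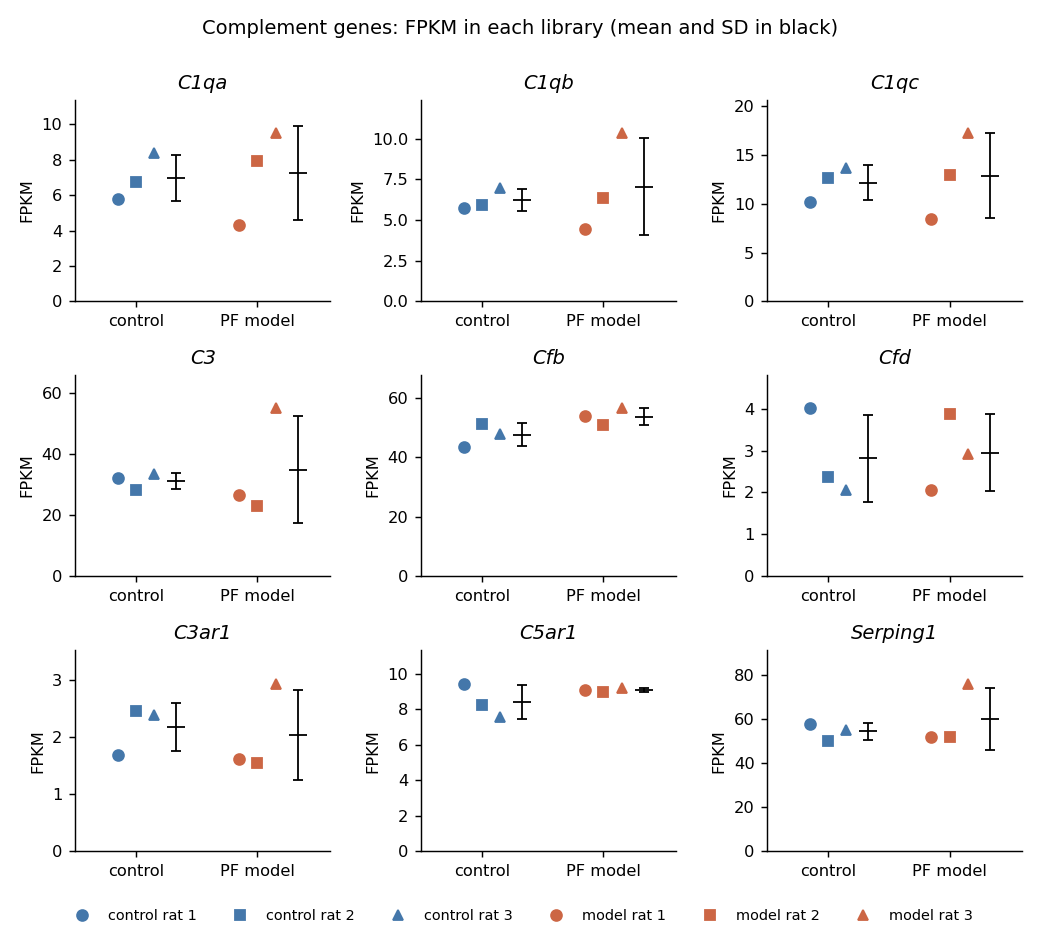
FPKM (y axis, linear, from 0, a separate scale in each panel) of the 9 complement genes in the 3 control (blue) and 3 PF model (orange) libraries, 1 symbol per rat, with mean and SD in black. The groups overlap in every panel, and model rat 3 (orange triangle) is the highest of the 6 libraries for 7 genes, all except Cfd and C5ar1.

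The start sites of C1qa, C1qb and C3 are shown because the C1q chains varied together across the 6 libraries and C3 had the widest range. Each sequence is the 300 bases from 250 before to 50 after the RefSeq start, 5′ to 3′ on the strand of the gene, in assembly GRCr8, and 5 of the 9 genes had an entry in that table. Capitals mark GGAAGT on either strand in C1qa and C1qb, the core bound by ETS family factors such as PU.1 of myeloid cells, and TTGCGNAA in C3, a pattern of the kind bound by C/EBP factors.
C1qa, chr5:154419884-154420183, minus strand: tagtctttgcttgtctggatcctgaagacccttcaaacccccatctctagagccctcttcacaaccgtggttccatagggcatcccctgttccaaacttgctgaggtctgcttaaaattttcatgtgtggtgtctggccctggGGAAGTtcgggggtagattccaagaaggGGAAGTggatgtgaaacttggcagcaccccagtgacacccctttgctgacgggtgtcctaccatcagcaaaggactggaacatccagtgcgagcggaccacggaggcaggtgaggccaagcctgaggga
C1qb, chr5:154407778-154408077, minus strand: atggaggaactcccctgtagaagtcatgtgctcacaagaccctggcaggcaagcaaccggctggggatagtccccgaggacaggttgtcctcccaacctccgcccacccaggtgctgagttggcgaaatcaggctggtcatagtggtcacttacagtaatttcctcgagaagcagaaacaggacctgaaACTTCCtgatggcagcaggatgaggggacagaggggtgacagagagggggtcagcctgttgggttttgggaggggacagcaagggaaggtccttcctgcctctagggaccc
C3, chr9:2201290-2201589, minus strand: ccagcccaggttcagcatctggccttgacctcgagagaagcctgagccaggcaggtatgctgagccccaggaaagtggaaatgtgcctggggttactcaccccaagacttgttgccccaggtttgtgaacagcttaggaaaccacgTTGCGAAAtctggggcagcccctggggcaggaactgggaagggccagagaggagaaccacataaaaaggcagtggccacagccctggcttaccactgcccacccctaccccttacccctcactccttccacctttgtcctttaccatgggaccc
GGAAGT lay 107 and 79 bases before the start of C1qa on the strand of the gene, and 61 bases before the start of C1qb on the opposite strand. It was found in 22.6% of the 33469 promoters in the table, and at 2 or more positions in 3.72%. TTGCGNAA lay 104 bases before the start of C3 and was found in 0.846% of promoters. Neither pattern was in the windows of C3ar1 and Cfd. The patterns do not overlap each other, they were chosen with the sequences in view, and a match is a description and not a bound site.

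The C1q genes lie side by side on chromosome 5 of the deposited coordinates, whose genome build is not given in the sources used here. C1qb was at chr5:155246447-155252003, C1qc at chr5:155255005-155258392 and C1qa at chr5:155261250-155264143, all on the minus strand, each with 1 annotated transcript of 3 exons. C1qa was at 5.80, 6.72 and 8.39 FPKM in control rats 1 to 3 and at 4.29, 7.95 and 9.50 in model rats 1 to 3. The lowest and the highest C1qa level were both in the model group, on either side of all controls. The means were 6.97 ± 1.31 and 7.25 ± 2.67 FPKM (SD, n = 3 each), and the log2 fold change was 0.00 with a standard error of 0.27 (adjusted p = 1). C1qb was at 5.74, 5.93 and 6.97 FPKM in controls and 4.47, 6.34 and 10.3 FPKM in model rats. Its group means, 6.22 ± 0.661 against 7.05 ± 2.99 FPKM (SD, n = 3 each), differed by a log2 fold change of 0.10 with a standard error of 0.26 (adjusted p = 0.982). C1qc was at 10.2, 12.7 and 13.7 FPKM in controls and 8.49, 12.9 and 17.2 FPKM in model rats. Model rat 1 was again below and model rat 3 above every control. The C1qc means were 12.2 ± 1.83 and 12.9 ± 4.37 FPKM (SD, n = 3 each), a log2 fold change of 0.03 with a standard error of 0.25 (adjusted p = 0.996).

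C1q is built from equal numbers of its chains, and the mRNAs of the chains kept similar proportions in every library. C1qa made up between 24.9% and 29.2% of the summed C1q FPKM, C1qb between 23.3% and 27.9% and C1qc between 46.5% and 50.1%. The ratio of C1qc to C1qa FPKM ranged from 1.63 to 1.98 over the 6 libraries, while the summed level ranged from 17.3 to 37.1 FPKM. The sum was 21.7, 25.3 and 29.1 FPKM in controls and 17.3, 27.2 and 37.1 FPKM in model rats. The model libraries thus spanned the whole control range. The mean sum was 25.4 ± 3.68 FPKM in controls and 27.2 ± 9.90 FPKM in model rats (SD, n = 3 each, exact permutation test, two-sided, p = 0.9, the smallest possible being 0.1). The macrophage receptor gene Csf1r, at 28.9, 29.8 and 29.1 FPKM in controls and 28.1, 24.1 and 30.4 FPKM in model rats, varied less between rats, with an SD of 1.52% of the mean in controls and 11.7% in model rats. Macrophage markers differed in this spread. In model rats, Cd68, Cd163, Msr1 and Fabp4, picked after their values were seen, had SDs of 79.8%, 69.4%, 42.3% and 72.5% of the mean. The other macrophage markers measured, Csf1r among them, had SDs of 1.47% to 16.6% of the mean in model rats. Summed C1q over Csf1r was 0.751, 0.852 and 0.997 in controls and 0.614, 1.13 and 1.22 in model rats, with overlapping groups (exact permutation p = 0.7). Between 901 and 1836 estimated reads per library lay behind the C1q sum.

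C3, the protein on which the pathways meet, is at chr9:9721105-9747167 on the plus strand in the deposited coordinates. Its level was 32.0, 28.2 and 33.4 FPKM in controls and 26.5, 23.0 and 54.8 FPKM in model rats. Model rats 1 and 2 were below all controls and model rat 3 was above them all. The means were 31.2 ± 2.70 and 34.8 ± 17.4 FPKM (SD, n = 3 each), and the log2 fold change of 0.05 had a standard error of 0.31 (adjusted p = 0.995). Without model rat 3 the model mean was 24.8 ± 2.48 FPKM (n = 2) and the log2 fold change turned to -0.32 (adjusted p = 0.983), while without control rat 2 it was -0.02. The exact permutation test without model rat 3 gave p = 0.2, the smallest that 3 against 2 allows.

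Factor B, which carries the protease of the alternative pathway C3 convertase, was the member nearest to a separation of the groups. Cfb was at 43.6, 51.4 and 48.0 FPKM in controls and 53.9, 50.9 and 56.5 FPKM in model rats. The only overlap was model rat 2 under control rat 2. The means were 47.6 ± 3.88 and 53.8 ± 2.80 FPKM (SD, n = 3 each), a ratio of 1.13. The log2 fold change was 0.17 with a standard error of 0.09 and a 95% interval from -0.04 to 0.38 (p = 0.0896, adjusted p = 0.933 by limma), and the exact permutation test gave p = 0.2. With FPKM rescaled to TPM, which brings every library to the same sum, the log2 fold change of Cfb was 0.26 (adjusted p = 0.911 by limma). The exact permutation p was then at its smallest value, 0.1, so on that scale the Cfb groups did not overlap. The share of all genes without overlap on that scale is not given here. The rows named Cfb span chr20:4536203-4561066 on the minus strand and include long annotated transcripts at low level, and the neighbouring C2 belonged to the same assembled locus.

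C2, the classical pathway counterpart of factor B, passed neither call. C2 was at 18.6, 14.9 and 16.5 FPKM in controls and 21.0, 21.0 and 20.2 FPKM in model rats, without overlap. The log2 fold change was 0.30 with a standard error of 0.09, and the unadjusted p of 0.0169 became 0.933 after adjustment over all genes. The exact permutation p was 0.1, the smallest for 3 against 3.

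Factor D, the protease that cleaves factor B and is known as adipsin from fat cells, was low and uneven. Cfd (chr7:12634216-12635943, minus strand) was at 4.003, 2.38 and 2.05 FPKM in controls and 2.05, 3.87 and 2.92 FPKM in model rats. The lowest control and the lowest model rat were at the same level to 3 digits, and the highest rat of each group was at about the same level too. The means were 2.81 ± 1.04 and 2.95 ± 0.911 FPKM (SD, n = 3 each), with a log2 fold change of 0.06 and a standard error of 0.25 (adjusted p = 0.993). It had the fewest reads of the 9 genes, an estimated 72.5 to 155 per library. Markers of adipocytes, which make much factor D, were followed beside it. Adipoq was at 0 in all controls and in model rat 2, and at 0.118 and 0.223 FPKM in model rats 1 and 3. Lep was at 0 in all controls and between 0.0376 and 0.0984 FPKM in model rats. The summed level of the 6 adipocyte markers was 21.1 to 27.97 FPKM in controls and 13.8 to 23.9 FPKM in model rats. Most of it came from Lpl, which other lung cells express too, at 22.4 ± 3.99 and 17.3 ± 5.37 FPKM (SD, n = 3 each), and the next highest, Cidec, was at 0.597 ± 0.0735 and 0.733 ± 0.0501 FPKM. Of the 5 adipocyte markers tested, 4 had a log2 fold change above 0 and 1, Lpl, below. Without Lpl the sum was 0.954, 1.02 and 1.04 FPKM in controls and 1.38, 1.33 and 2.01 FPKM in model rats, and Plin1 averaged 0.0593 ± 0.0297 and 0.289 ± 0.271 FPKM (SD, n = 3 each), highest in model rat 3 (both given after their values were seen). The part of fat cells in the Cfd level was not tested.

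Of the receptors, C3ar1, which binds C3a, was the least expressed member. C3ar1 (chr4:155684029-155690869, minus strand) was at 1.69, 2.44 and 2.39 FPKM in controls and 1.61, 1.54 and 2.93 FPKM in model rats. Like C3, it was lowest in model rats 1 and 2 and highest in model rat 3. The means were 2.17 ± 0.421 and 2.03 ± 0.783 FPKM (SD, n = 3 each), a log2 fold change of -0.09 with a standard error of 0.21 (adjusted p = 0.976). Without model rat 3 the groups did not overlap and the log2 fold change was -0.29 (adjusted p = 0.983). C3 and C3ar1 were the 2 of 9 members without overlap among those 5 libraries, a state that held for 19.9% of all genes tested. Other omissions separated members the other way, with model rats higher. These were Cfb without control rat 2 or without model rat 2, and C5ar1 without control rat 1. The share of all genes for those omissions is not given here.

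C5ar1, the C5a receptor of neutrophils and macrophages, was at 9.44, 8.25 and 7.55 FPKM in controls and 9.06, 8.98 and 9.20 FPKM in model rats. In this gene sum the model rats lay close together, inside the range of the controls. The means were 8.42 ± 0.956 and 9.08 ± 0.109 FPKM (SD, n = 3 each), and the log2 fold change of 0.10 had a standard error of 0.10 (adjusted p = 0.934). The sum includes a downstream fragment described below. On the annotated transcript alone, model rats were at 7.71, 6.77 and 8.42 FPKM with an SD of 0.830, and model rat 3 was above all controls. C5ar1 (chr1:78186776-78195328, minus strand) was one of the 2 members that were not highest in model rat 3.

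Serping1 (chr3:72161189-72171078, minus strand), the gene of C1 inhibitor, had the highest mean level of the 9 genes. It was at 58.0, 50.4 and 55.3 FPKM in controls and 51.8, 52.2 and 76.3 FPKM in model rats. Model rats 1 and 2 were within the control range and model rat 3 was above it. The means were 54.6 ± 3.88 and 60.1 ± 14.1 FPKM (SD, n = 3 each), and the log2 fold change was 0.12 with a standard error of 0.16 (adjusted p = 0.952). Without model rat 3 the log2 fold change was -0.07 (adjusted p = 0.986). The exact permutation p, two-sided on mean FPKM, lay between 0.2 for Cfb and 1 for C1qa and C3 over the 9 genes.

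The order of mean level over the 6 libraries was Serping1 at 57.3 FPKM, Cfb at 50.7, C3 at 33.01, C1qc at 12.5, C5ar1 at 8.75, C1qa at 7.11, C1qb at 6.63, Cfd at 2.88 and C3ar1 at 2.10 FPKM. Neighbours separated in every library were C3 from C1qc, a ratio of 2.63, and C1qb from Cfd, a ratio of 2.30, in both cases with ranges that did not overlap. Cfb was above C3 in 6 of 6 libraries by a mean ratio of 1.54, although the ranges overlapped through model rat 3. The other neighbours did not differ beyond their spread. Serping1 exceeded Cfb in 4 of 6 libraries, C1qc exceeded C5ar1 in 5 of 6, C5ar1 exceeded C1qa in 4 of 6, C1qa exceeded C1qb in 4 of 6 and Cfd exceeded C3ar1 in 3 of 6.

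Model rat 3 had the highest level of the C1q genes, C3, C3ar1, Serping1 and Cfb, while C1qa and C1qc were farther below their mean in model rat 1 (-0.58 and -0.48 in centred log2(FPKM + 1)) than above it in model rat 3 (0.41 and 0.46). Its level over the mean of the other 5 libraries was 1.91 for C3, 1.75 for C1qb, 1.52 for C3ar1, 1.49 for C1qc, 1.43 for C1qa and Serping1, 1.14 for Cfb, 1.06 for C5ar1 and 1.02 for Cfd. The median of this ratio was 1.43 over the 9 genes and 1.01 over the 14312 tested genes with a mean of at least 1 FPKM, of which 1.57% were above C3. The 95th percentile of all these genes was 1.47, so C3, C1qb, C3ar1 and C1qc were above it and the other 5 members were below it. Model rat 3 was the highest library for 7 of 9 complement genes and for 23.6% of all genes tested. Without it, 6 of the 9 genes had a log2 fold change below 0 and 3 above, with a median of -0.18, and still 0 passed either call. Without model rat 1, in contrast, 9 of 9 were above 0 with a median of 0.21, again with 0 calls. Among the 11 macrophage markers measured, 5 were highest in model rat 3, and their sum was 4724 to 5638 FPKM in controls and 4503 to 6218 FPKM in model rats, 5108 FPKM in model rat 3. Lyz2 alone made up 97.96% to 98.54% of that sum. Without Lyz2, a choice made after its values were seen, the other 10 markers summed to 87.5, 86.6 and 70.9 FPKM in controls. The sums in model rats were 90.9, 68.6 and 104.02 FPKM. Model rat 3 was highest, as for the C1q genes, but the other libraries were in another order. Model rat 1, lowest for the C1q genes, was above all controls here. Control rat 3 and model rat 2 were lowest, and their Cd68 was at 1.30 and 1.21 FPKM, against 20.7 to 22.8 FPKM in the other libraries. The order of this sum below model rat 3 thus rests largely on Cd68, and no sum without Cd68 is given here. Lyz2 and Csf1r had the highest mean level of that list, and Lyz2 averaged 4949 ± 521 FPKM in controls and 5188 ± 861 FPKM in model rats (SD, n = 3 each). Of the 5 neutrophil markers measured, 2 were highest in model rat 3, and their sums were 11.2 to 16.6 FPKM in controls and 10.7 to 13.2 FPKM in model rats. The highest of them, Csf3r, averaged 5.82 ± 1.12 and 4.397 ± 1.26 FPKM and S100a9 averaged 4.62 ± 1.07 and 4.02 ± 0.729 FPKM (SD, n = 3 each). The part of these cell types in the complement levels was not tested. Of the hepatocyte markers, Serpina1 averaged 2.64 ± 0.493 FPKM in controls and 3.16 ± 0.920 FPKM in model rats (SD, n = 3 each), Apoa1 was at most 0.184 FPKM in any library and Ttr was at 0 in every library except control rat 2, at 0.124 FPKM.

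**Figure D2:**
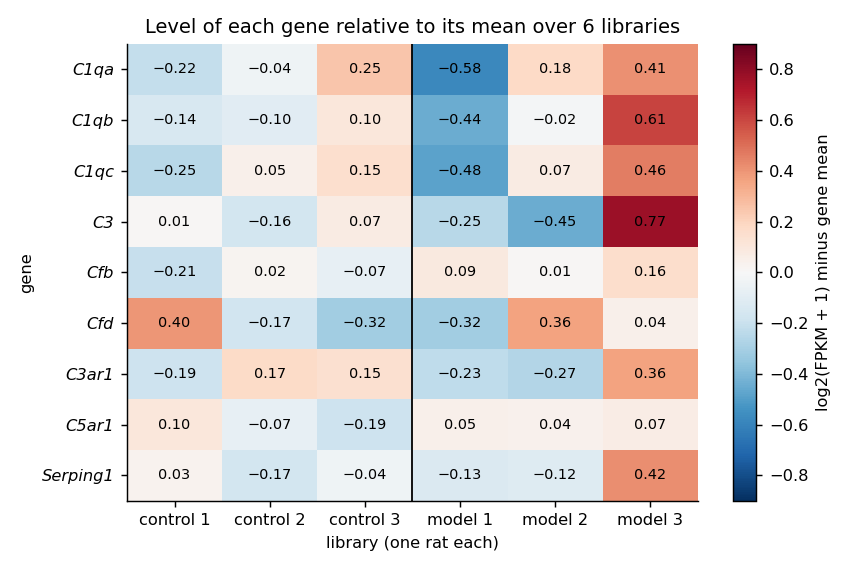
Level of each complement gene in each library as log2(FPKM + 1) minus the mean of the gene over the 6 libraries (colour and printed value), with control rats left and model rats right of the line. The C1q genes share their pattern, lowest in model rat 1 and highest in model rat 3, C3 reaches 0.77 in model rat 3, and Cfd has another pattern, highest in control rat 1.

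Genes with the most similar pattern across the 6 libraries were listed as a description, by the root mean square difference of centred log2(FPKM + 1) among 8726 genes with a mean of at least 5 FPKM. For the C1q sum they were Igfbp5 with a difference of 0.087, Mok with 0.094 and Pecr with 0.108, where the C1q pattern itself had a root mean square of 0.33. The leukocyte integrin gene Itgb2 was at rank 2029 of that list, and the macrophage markers Csf1r and Mrc1 were at ranks 2582 and 7133. The other macrophage markers were not ranked. The difference of Csf1r, 0.328, was about the 0.33 that a gene with the same level in every library would have. The part of macrophages in the C1q pattern was not tested. For C3 the most similar genes were P2rx4 with 0.059, Dcxr with 0.097 and Gpr155 with 0.104, against 0.38 for the C3 pattern itself. P2rx4, which encodes an ATP-gated ion channel, was at 10.6, 9.33 and 11.2 FPKM in controls and 8.71, 7.81 and 16.9 FPKM in model rats, so it too was lowest in model rats 1 and 2 and highest in model rat 3. For Cfd they were Ergic1 with 0.105, Shisa4 with 0.119 and LOC100361087 with 0.122, against 0.29.

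The 9 genes were carried by 17 transcripts, of which 16 passed the filter on low values. The call by p and fold took 0 of these 16, against 2.98% of the 64867 transcripts tested, and an adjusted p below 0.05 was met by 0 of 16, against 0.0277% of all. An unadjusted p of at most 0.05 was also met by 0 of 16, against 4.53% of all transcripts. C1qa, C1qb, C1qc and C3ar1 had 1 annotated transcript each. The transcript that was not tested was the Cfb isoform ENSRNOT00000075928, above 0 in control rat 1 alone at 0.0313 FPKM. The main Cfb transcript ENSRNOT00000000477 held 99.1% to 99.3% of Cfb FPKM in every library.

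Serping1 was split between its annotated transcript ENSRNOT00000009817, of 8 exons, and an assembled isoform of 7 exons, MSTRG.23301.2, in some rats of both groups. The assembled isoform was at 8.24, 0 and 19.0 FPKM in controls and at 11.9, 0 and 0 FPKM in model rats. It thus took 14.2% and 34.4% of Serping1 FPKM in control rats 1 and 3 and 23.0% in model rat 1, and it was listed at 0 in the other 3 libraries. The annotated transcript was at 49.8, 50.4 and 36.3 FPKM in controls and 39.9, 52.2 and 76.3 FPKM in model rats, with a log2 fold change of 0.26 and a standard error of 0.27 (adjusted p = 0.945). Where the isoform was listed, between 622 and 1516 estimated reads lay behind it. The gene sum of Serping1 varied less between rats of a group than the annotated transcript did.

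C3 had an assembled isoform of 26 exons, MSTRG.36231.2, beside the main annotated transcript ENSRNOT00000075494 of 41 exons. The short isoform was at 0.742, 1.19 and 1.10 FPKM in controls and 3.23, 0.706 and 0.731 FPKM in model rats. Model rat 1 alone was high, with 12.2% of its C3 FPKM on this isoform, and the share was 1.33% to 4.23% in the other 5 libraries. The main transcript held 87.1% to 98.5% of C3 FPKM, and another annotated one, ENSRNOT00000073042, held at most 1.36%.

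Cfd had a single-exon annotated transcript of 426 bases, ENSRNOT00000093132, beside the full one, ENSRNOT00000015029, of 5 exons. The short one was at 0.0669, 0.281 and 0.499 FPKM in controls and 0.556, 1.25 and 0.191 FPKM in model rats. It held between 1.67% of Cfd FPKM in control rat 1 and 32.1% in model rat 2, and at most 23.3 estimated reads lay behind it. The log2 fold change was 0.34 with a standard error of 0.26 (adjusted p = 0.945).

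C5ar1 included a fragment of 555 bases just downstream of the gene, MSTRG.1142.1 at chr1:78184922-78185476. It held 8.45% to 24.7% of C5ar1 FPKM, lowest in model rat 3 and highest in model rat 2. Without it the annotated transcript ENSRNOT00000073034 was at 7.74, 6.86 and 5.97 FPKM in controls and 7.71, 6.77 and 8.42 FPKM in model rats, with a log2 fold change of 0.14 and a standard error of 0.13 (adjusted p = 0.945). Model rat 3 was then the highest library for this receptor too.

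**Figure D3:**
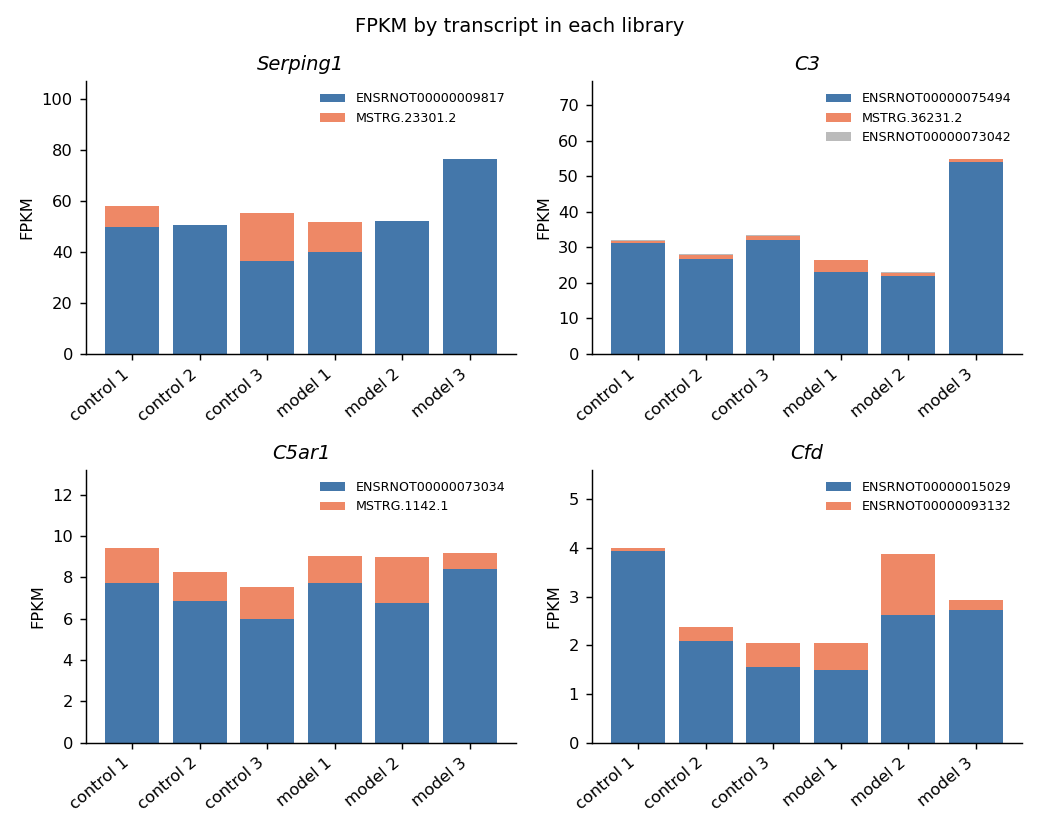
FPKM (y axis, linear, from 0) of Serping1, C3, C5ar1 and Cfd in each library, stacked by transcript, with the main annotated transcript in blue. The assembled Serping1 isoform (orange) is present in control rats 1 and 3 and model rat 1 and listed at 0 elsewhere, and the single-exon Cfd transcript is largest in model rat 2 at 1.25 FPKM.

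The rest of the complement system was followed with 42 further genes, of which 36 were found and tested. The genes Mbl2, Colec11, C8a, C8b, Cpn2 and Itgam were not analysed here. Among the 36, 17 had a log2 fold change above 0 and 19 below, with a median of -0.02, and the split was 22 and 14 after rescaling to TPM. Under either scaling 0 passed the calls. Only C2 had an unadjusted p of at most 0.05, and only C2 and C8g had groups without overlap, 2 of 36 against 10.7% of all genes. Model rat 3 was highest for 10 of these 36 genes.

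Of the 11 classical and lectin pathway genes, 7 were higher and 4 lower, with a median log2 fold change of 0.01. C4a, a C4 gene, averaged 60.0 ± 14.8 FPKM in controls and 63.0 ± 15.5 FPKM in model rats (SD, n = 3 each), though its reads may be shared with the near-identical C4b and the split between them is uncertain. C1r, a protease of the C1 complex, averaged 18.9 ± 0.429 and 19.1 ± 1.53 FPKM (SD, n = 3 each). Of the 6 alternative and terminal pathway genes, 3 were higher and 3 lower, with a median of -0.01. C7, a part of the membrane attack complex, averaged 77.5 ± 30.2 and 91.5 ± 10.2 FPKM, and C5, the source of C5a, averaged 23.3 ± 5.11 and 24.6 ± 4.32 FPKM (SD, n = 3 each). C8g, another part of that complex, was at 3.38, 3.73 and 4.24 FPKM in controls and 3.05, 3.32 and 2.39 FPKM in model rats. All its model values were below all control values, with a log2 fold change of -0.29, a standard error of 0.15 and an adjusted p of 0.933.

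The 12 regulators were 6 higher and 6 lower, with a median log2 fold change of 0.04, and 8 higher and 4 lower after rescaling to TPM. Cd59, which blocks the membrane attack complex, averaged 107.5 ± 9.09 and 104.2 ± 7.41 FPKM, and clusterin, Clu, averaged 88.2 ± 7.70 and 85.5 ± 18.7 FPKM (SD, n = 3 each). Cd55, which speeds the decay of C3 convertases, had the smallest p of this list, at 5.18 ± 1.07 FPKM in controls and 3.88 ± 0.791 FPKM in model rats (adjusted p = 0.933). Of the 7 other receptors, 1 was higher and 6 lower, with a median of -0.10, and 3 were higher and 4 lower after rescaling to TPM. Cd93 averaged 52.6 ± 2.20 and 51.8 ± 6.04 FPKM, and Itgb2, the shared chain of leukocyte integrins, averaged 29.7 ± 1.67 and 28.9 ± 1.96 FPKM (SD, n = 3 each). Itgax, the partner chain of complement receptor 4, had the smallest p, at 5.71 ± 0.876 and 4.91 ± 0.371 FPKM (adjusted p = 0.933).

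**Figure D4:**
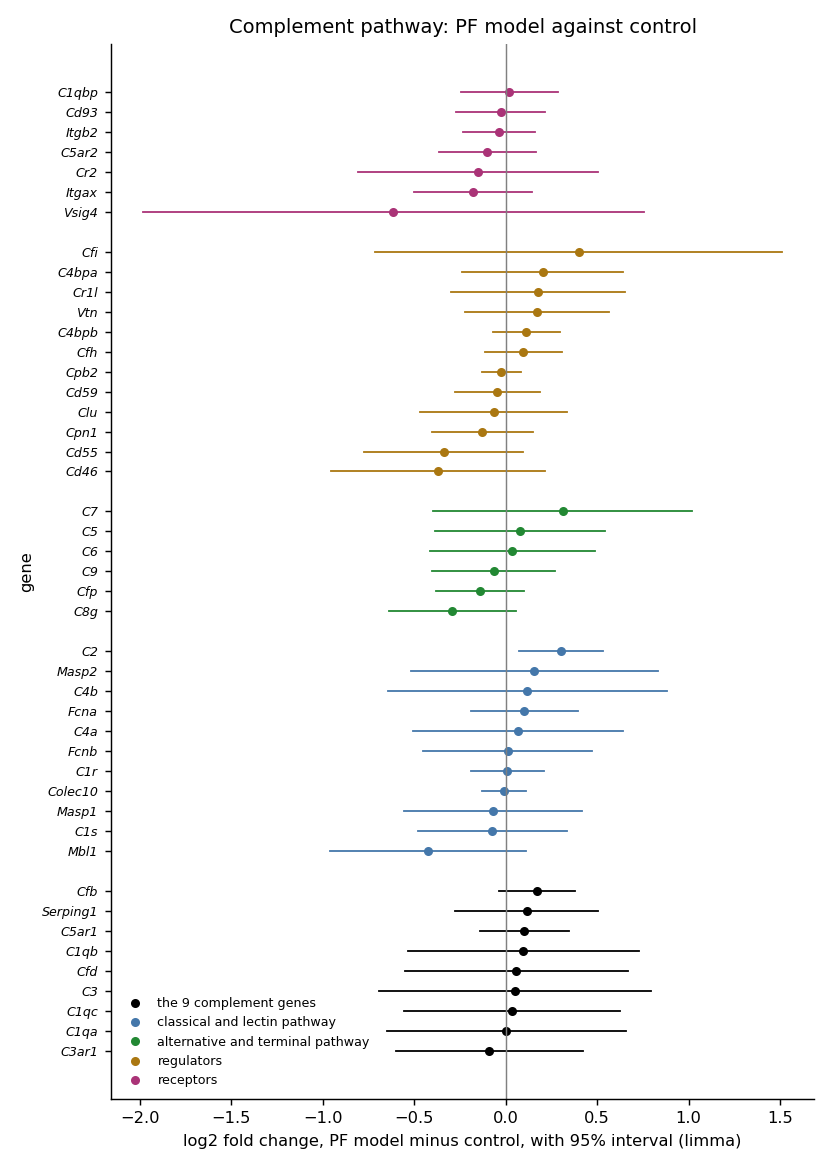
Log2 fold change of FPKM, PF model minus control (x axis, points), with its 95% interval from the limma fit (lines), for the 9 complement genes (black) and the 36 other complement genes by role (colours). The intervals of all 9 genes and of all others except C2 cross 0.

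Markers of fibroblasts and epithelium describe the lungs in which these levels were measured. The 9 fibroblast and fibrosis markers were 6 higher and 3 lower, with a median log2 fold change of 0.15, and 0 passed either call. Their sum was 443 to 516 FPKM in controls and 511 to 621 FPKM in model rats, the highest in model rat 3. Col3a1, a fibrillar collagen, was at 174, 178 and 154 FPKM in controls and 189, 204 and 233 FPKM in model rats, without overlap (limma p = 0.0366, adjusted p = 0.933, exact permutation p = 0.1). Fn1, fibronectin, averaged 75.0 ± 13.7 and 83.0 ± 13.6 FPKM (SD, n = 3 each), with overlap. The lung epithelial markers Scgb1a1 and Sftpc were between 2410 and 7693 FPKM in all 6 libraries, and 0 of the 6 measured passed either call.

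Circular RNAs, closed loops read from back-splice junctions, were found for 1 of the 9 genes. The table held 3 from C3 and none from the other 8 members, with 6 back-splice reads in all, and all 6 reads were in model rat 3. They were ciRNA422 at chr9:9739070-9740171 with 4 reads, ciRNA421 at chr9:9726310-9726559 with 1 read, both from introns, and circRNA4713 at chr9:9725777-9726309, of 2 exons, with 1 read. The other 5 libraries had 0 of 2037 to 2667 back-splice reads on C3, which allows a share of up to 0.112% to 0.147%, for counting error only. Model rat 3, with 2964 back-splice reads in all, also had the most linear C3 reads, an estimated 12752 against 5110 to 8233 in the others.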

How the data were processed

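Lung RNA of 3 control and 3 PF model rats was sequenced after rRNA depletion with stranded libraries and 150-base paired reads. For linear RNAs the authors trimmed reads with Cutadapt, mapped and assembled them (Bowtie2, Tophat2 and StringTie in the methods, HISAT2, StringTie and TopHat in the submitters' processing notes), and deposited FPKM per transcript, estimated with StringTie and Ballgown. The authors also deposited coverage, a signal per base that was used here only to estimate reads, as coverage × length / 150. For circular RNAs, back-splice reads were called with Tophat-fusion and CIRCexplorer, and their raw counts were deposited beside a normalized signal that was not used. The genome build is not given in the sources used here. All 24 columns of values were mapped to a sample by name, and 0 were left over.

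FPKM was summed over the transcripts of a gene name, and genes above 0 in at least 3 of 6 libraries were fitted with limma 3.58.1 in R 4.3.3 (trend in the variance) on log2(value + 1). Fold changes on that scale understate changes of low genes. Two-sided p-values were adjusted by Benjamini-Hochberg over all genes or transcripts tested. The calls were unadjusted p of at most 0.05 with an absolute log2 ratio of mean FPKM of at least 1, the thresholds of the methods, and adjusted p below 0.05. Exact permutation tests were run on single values (scipy 1.17.1), and their smallest p is 0.1 for 3 against 3. The fit was tested on simulated data. The members and lists were chosen with earlier results of these data known. Named genes were all members and their transcripts, in each other complement list the called genes, the 2 with the highest mean and the one with the smallest p, in marker lists the 2 with the highest mean and the called ones, and the 3 most similar patterns for the C1q sum, C3 and Cfd. Adipoq, Lep, Plin1, Ttr, Cd68, Cd163, Msr1, Fabp4, Aif1 and Mrc1 were named in addition, after their values were seen. Alternatives were pseudocount, filter, scaling, variance model, gene summary, a replicate block and leaving out each library.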

Additional observations from a re-analysis of the deposited data

Results flagged for a closer look

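The 6 back-splice reads of C3 circular RNAs in model rat 3 were flagged because the report's comparisons of linear RNA do not use them and the control libraries held none. Each of the 3 control libraries had 0 such reads, which allows up to 3 reads each, and so did model rats 1 and 2, so the signal is that of a single library with no replicate check.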

How the results depend on the processing

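The count of the 9 complement genes and of their transcripts past either call was 0 under every alternative run. The count of the 9 genes with an unadjusted p of at most 0.05 was 0 with all libraries and became 1 after rescaling to TPM (Cfb, adjusted p = 0.911 by limma) and 1 without model rat 3 (C3, adjusted p = 0.983). Cfb, C5ar1 and C2 kept a log2 fold change above 0 in all 16 alternatives, from 0.11 to 0.26 for Cfb, 0.04 to 0.19 for C5ar1 and 0.23 to 0.39 for C2, with adjusted p from 0.82 to 1 for Cfb. Cd55 and Itgax stayed below 0 in every alternative run for them, from -0.46 to -0.21 for Cd55 and from -0.79 to -0.08 for Itgax. The count of all genes called by p and fold, 298, became 84 with a mean FPKM of at least 1, where fewer genes were tested, and 519 with annotated transcripts only; the cause of the latter was not tested. Of the 298 calls 130 were higher and 168 lower, against 196 and 141 after rescaling to TPM, 177 and 157 after rescaling without small RNA names and 154 and 152 after quantile normalization. The median log2 fold change of all genes moved from -0.01 to 0.05 with TPM.

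Directions turned as follows, and the cause was not tested. With a pseudocount of 0.1, C1qa was at -0.0035, and with the length-weighted sum Cfd was at -0.00076 and C5 at -0.12. With annotated transcripts only, C4a was at -0.67, C7 at -0.53, C8g at 0.0041 and Itgb2 at 0.085. With TPM, Cd59 was at 0.040, Cd93 at 0.057, Clu at 0.020 and Itgb2 at 0.045, and without small RNA names Cd59 was at 0.0097, Cd93 at 0.026 and Itgb2 at 0.015. Leaving out each library in turn gave log2 fold changes from -0.20 to 0.29 for C1qa, -0.18 to 0.34 for C1qb, -0.19 to 0.28 for C1qc, -0.32 to 0.29 for C3, -0.29 to 0.022 for C3ar1, -0.11 to 0.27 for Cfd, -0.066 to 0.21 for Serping1, -0.043 to 0.067 for C1r, -0.12 to 0.25 for C4a, -0.076 to 0.23 for C5, -0.023 to 0.57 for C7, -0.097 to 0.021 for Cd59, -0.11 to 0.057 for Cd93, -0.22 to 0.095 for Clu and -0.077 to 0.016 for Itgb2. The difference in mean FPKM ranged from -0.851 to 1.75 for C1qa, -0.812 to 2.12 for C1qb, -1.48 to 2.89 for C1qc, -6.42 to 9.48 for C3, -0.598 to 0.0967 for C3ar1, -0.325 to 0.734 for Cfd and -2.59 to 9.68 for Serping1. The count of other complement genes past p and fold ranged from 0 to 1, the 1 being Mbl1 without model rat 2, at a log2 fold change of -0.42 with all libraries (chosen after its values were seen).

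The labels do not say whether the replicate numbers pair the rats, and the main fit used no pairing. Deviations of same-numbered libraries correlated at 0.067, 0.028 and -0.087 over 14320 genes. Those of differently numbered libraries correlated at -0.137 to 0.104, so the correlations show no pairing but cannot exclude it. With the replicate block, 312 genes were called by p and fold, 0 genes at an adjusted p below 0.05 in place of 2, and 0 complement genes by either call. With 3 rats a group, the 95% interval of the log2 fold change was widest for C3, from -0.69 to 0.79. It was narrowest of the 9 for Cfb, from -0.04 to 0.38. Differences inside the interval of a gene were not excluded, and the p-values rest on the spread between 3 rats.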

Other observations

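Cd68, a macrophage marker that encodes a lysosomal protein, was chosen after its values were seen. It was at 21.0, 20.7 and 1.30 FPKM in controls and 22.2, 1.21 and 22.8 FPKM in model rats, so 1 rat of each group was more than 10-fold below the others. The C1q sum of these rats, control rat 3 and model rat 2, was 29.1 and 27.2 FPKM, above that of 3 of the other 4 libraries. No other macrophage marker measured was 10-fold lower in both of these rats. In them, Csf1r was at 29.1 and 24.1 FPKM and Aif1 at 6.80 and 6.23 FPKM. The cause of the low Cd68 was not tested. The scavenger receptor Msr1, another gene of macrophages chosen the same way, was at 7.27, 8.62 and 8.31 FPKM in controls. In model rats it was at 11.3, 8.44 and 19.0 FPKM (adjusted p = 0.933 by limma). Msr1 was highest in model rat 3 like the C1q genes, but in model rat 1, their lowest library, it was above all controls. Fabp4, Cd163 and Aif1 were lowest in model rat 1 like the C1q genes, at 0.380, 0.399 and 4.98 FPKM. Of these, Fabp4 was also highest in model rat 3. The other macrophage markers measured were lowest in other libraries.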
